A study of Homo sapiens with 18 samples.

Results

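The genes of cholesterol and fatty acid synthesis were followed in HepG2, an established human hepatoma line, after thyroid hormone and after the introduction of a thyroid hormone receptor. The list held 42 genes and 41 of them were measured. They comprise 16 of 17 enzymes of cholesterol synthesis (called the sterol arm here), 11 genes of fatty acid synthesis and 5 of glycerolipid synthesis (together the fatty acid arm, 16 genes), 6 regulators and 3 genes of sterol transport. A gene was taken from the array features annotated to its symbol alone, and from the brightest of them where there were several, which applied to CYP51A1. The enzyme gene HSD17B7 was represented by a feature it shares with HSD17B7P2 and was therefore left out.

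Stable HepG2 clones carried a plasmid for the receptor TRα1, a plasmid for the receptor TRβ1, or the empty plasmid, and were combined into 1 pool of 6 clones, 1 of 12 clones and 1 of 11 clones. The empty-plasmid pool is called the control pool. Each pool was kept in 10% hormone-stripped serum and given thyroid hormone (triiodothyronine, T3) at 100 nM or ethanol as vehicle for 6 h, with 3 independent repeats per group and 18 arrays in all. Because each construct was represented by 1 pool of clones, an effect of the receptor and a property of that pool's clones cannot be told apart. RNA of whole cultures was measured, so fewer cells with a transcript and less transcript per cell cannot be told apart either.

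Cells make cholesterol from acetyl-CoA through the mevalonate pathway, and fatty acids from the same precursor through acetyl-CoA carboxylase and fatty acid synthase. Both routes are driven by the SREBP transcription factors, which SCAP escorts for cleavage when sterols are low and INSIG proteins hold back in the endoplasmic reticulum when sterols are high. In the liver the carbohydrate-responsive factor ChREBP, encoded by MLXIPL, drives lipogenic genes as well. Thyroid hormone is known to act on hepatic lipid synthesis and on cholesterol turnover, and the question of the series was how the targets and activity of the 2 receptor isoforms compare.

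Promoter sequences were examined for the genes whose differences are described below, to show what letters lie just before their start sites. RefSeq promoters (GRCh38.p14) were available for 36 of the 41 genes, and the 250 bases before each start were searched on both strands. The CCAAT box, which binds the SREBP partner NF-Y, was present before 12 of 14 sterol genes, 7 of 13 fatty acid genes and 4 of 9 regulator and transport genes. Among all genes with a promoter in that table it was found before 37% of 27305. The core of the sterol regulatory element, the site of SREBP itself, searched as TCACNCCAC, was found before none of the 14 sterol genes and none of the 13 fatty acid genes, and before 1 of the other 9 (SREBF2), beside 1.09% of all genes. Only exact matches to these letters within 250 bases were counted. Sites with other letters or further away were not searched, so the absence of a match does not show that SREBP sites are lacking. The E-box CACGTG was found before 4 of the 36 (SC5D, ELOVL5, INSIG1 and SCAP), beside 7.73% of all genes. The nuclear receptor half-site AGGTCA was found before 3 of the 36 genes, ACACA, DHCR7 and ELOVL6, a share of 8.33% beside 14.6% of all genes. A pair of half-sites spaced by 4 bases, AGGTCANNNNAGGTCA, matched none of the 36 promoters and 0.0183% of all genes, and a gene with several starts was counted if any of them held the motif. Capitals mark CCAAT or its complement ATTGG in the first 3 sequences below, and AGGTCA or its complement TGACCT in that of ELOVL6, while neither motif occurs in the last 2.
MVK, chr12:109573544-109573793, plus strand, 5 CCAAT boxes: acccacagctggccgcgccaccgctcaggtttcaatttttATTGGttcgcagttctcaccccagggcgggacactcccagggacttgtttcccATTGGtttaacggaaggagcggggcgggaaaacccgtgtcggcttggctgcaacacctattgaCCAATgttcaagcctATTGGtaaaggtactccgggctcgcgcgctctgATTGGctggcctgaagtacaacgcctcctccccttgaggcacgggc
LSS, chr21:46228775-46229024, minus strand, 1 CCAAT box: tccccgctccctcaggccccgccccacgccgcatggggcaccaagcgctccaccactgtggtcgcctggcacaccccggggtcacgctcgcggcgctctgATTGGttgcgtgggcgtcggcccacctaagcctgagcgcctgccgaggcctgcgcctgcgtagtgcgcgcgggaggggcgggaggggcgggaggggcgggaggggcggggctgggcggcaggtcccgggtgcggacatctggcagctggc
DHCR7, chr11:71448394-71448643, minus strand, 2 CCAAT boxes, the downstream of 2 listed starts: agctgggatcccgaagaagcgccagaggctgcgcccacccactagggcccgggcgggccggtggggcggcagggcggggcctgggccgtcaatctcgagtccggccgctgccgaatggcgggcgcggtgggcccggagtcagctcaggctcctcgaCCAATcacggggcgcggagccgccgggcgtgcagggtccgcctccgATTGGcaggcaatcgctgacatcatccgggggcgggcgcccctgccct
ELOVL6, chr4:110198616-110198865, minus strand, 1 half-site: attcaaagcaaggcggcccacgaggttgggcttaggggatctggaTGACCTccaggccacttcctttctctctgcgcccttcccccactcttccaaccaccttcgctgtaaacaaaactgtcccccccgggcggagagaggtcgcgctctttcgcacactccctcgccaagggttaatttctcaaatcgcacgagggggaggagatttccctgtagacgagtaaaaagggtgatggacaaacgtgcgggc
MLXIPL, chr7:73624523-73624772, minus strand, no match: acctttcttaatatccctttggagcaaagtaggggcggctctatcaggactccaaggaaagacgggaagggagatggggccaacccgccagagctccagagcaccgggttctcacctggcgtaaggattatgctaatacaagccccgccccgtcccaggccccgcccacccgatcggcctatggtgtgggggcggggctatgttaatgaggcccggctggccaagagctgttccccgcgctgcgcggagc
NPC1, chr18:23586507-23586756, minus strand, no match: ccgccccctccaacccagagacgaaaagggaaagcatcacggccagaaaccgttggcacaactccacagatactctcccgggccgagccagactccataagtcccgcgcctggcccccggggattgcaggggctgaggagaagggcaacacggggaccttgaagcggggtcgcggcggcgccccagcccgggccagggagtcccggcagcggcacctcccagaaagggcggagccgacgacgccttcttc

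All values are log2 expression after RMA normalization, and a difference of 1 is a doubling of signal. Hepatocyte markers were measured for 14 of 16 listed genes, with levels between 10.7 and 12.7. Among the 5 leukocyte and macrophage markers measured, PTPRC stood lowest at 2.46. However, 2 of these 5, LYZ at 11.8 and CD68, stood above the median level of the tested features. THRA, the gene of TRα1, lay between 7.71 and 8.22 on T3 and between 7.39 and 7.55 on vehicle in the TRα1 pool, against 6.77 to 7.22 on the arrays of the other 2 pools. THRB lay between 7.39 and 7.48 on T3 and between 6.88 and 7.01 on vehicle in the TRβ1 pool, against 6.93 to 7.50 on T3 and 6.58 to 6.87 on vehicle in the TRα1 pool, and 6.90 to 7.20 on T3 and 6.41 to 6.90 on vehicle in the control pool. The THRA values of the TRα1 pool thus did not overlap those of the other pools, whereas THRB of the TRβ1 pool overlapped the control pool on vehicle and the TRα1 pool on T3. Arrays differed most by their replicate number: the 6 arrays numbered 1 stood apart from the other 12 on the first principal component, which carried 41.3% of the variance. Differences were therefore also fitted with the replicate number as a block, and both fits are given.

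Hormone treatment left most synthesis genes close to their vehicle level in all 3 pools. The median T3 difference of the sterol arm was -0.02 in the TRα1 pool, 0.03 with TRβ1 and 0.03 in the control pool, with 7, 10 and 12 of its 16 genes above 0. For the fatty acid arm the medians were 0.03, 0.04 and 0.01, with 10, 11 and 8 of 16 genes above 0. All features tested had medians of -0.02, -0.01 and -0.01. No gene of the list passed an adjusted p of 0.05 without the block in limma's moderated test in any pool. In each pool 1 gene had an unadjusted p under 0.05, beside 2.55%, 2.22% and 2.03% of all features in the TRα1, the TRβ1 and the control pool. The share of all 20546 features that passed the adjusted p was 0.131% with TRα1, 0.073% with TRβ1 and 0.00973% in the control pool. With the block, 1 gene passed in the TRα1 pool and none in the TRβ1 and control pools, where 5 and 4 genes had an unadjusted p under 0.05, beside 6.18% and 5.95% of all features. The shares of all features that passed the adjusted p with the block were 0.667%, 0.477% and 0.0973% in the TRα1, the TRβ1 and the control pool.

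**Figure D1:**
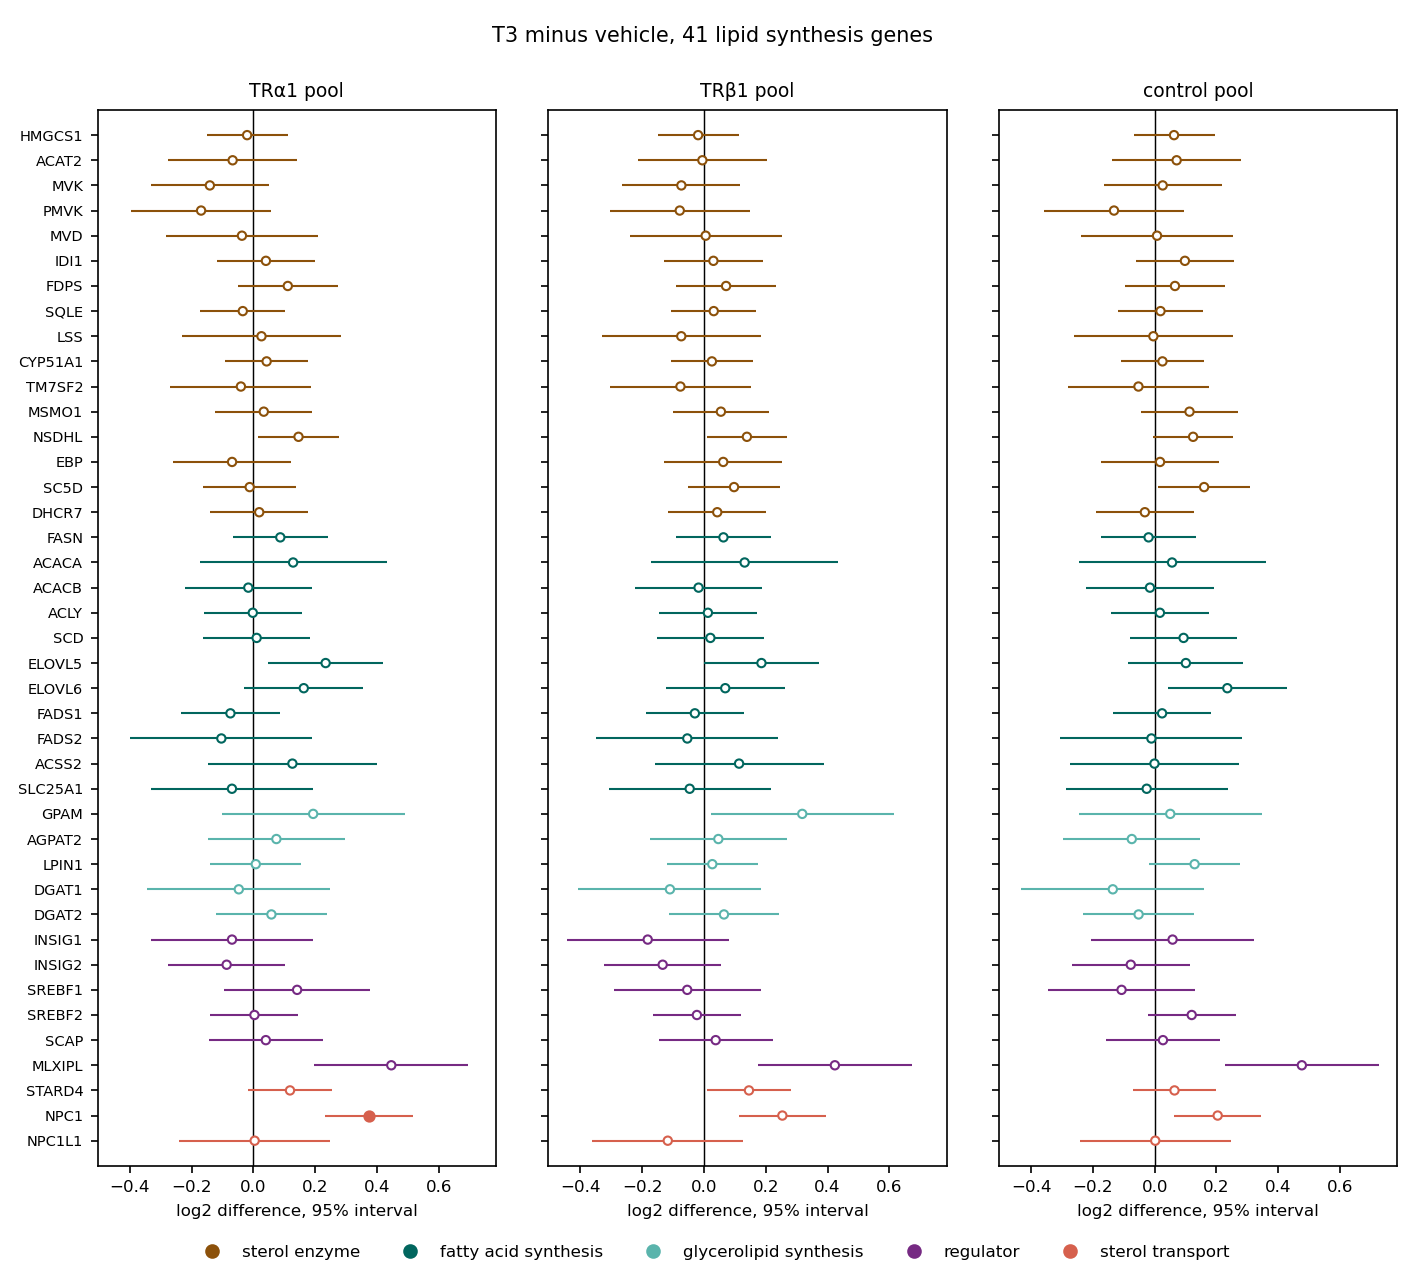
Log2 difference between T3 and vehicle for the 41 genes, grouped by role, in the TRα1, the TRβ1 and the control pool (3 arrays per group). Points are differences, bars are 95% intervals of the limma fit blocked on replicate number, and a filled point has an adjusted p under 0.05 in that fit. MLXIPL lies at 0.45, 0.42 and 0.48 in the TRα1, the TRβ1 and the control pool, and most sterol and fatty acid genes lie near 0.

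Among the regulators, MLXIPL had the largest T3 difference of the 41 genes in every pool. Its values on T3 in the TRα1 pool were 7.74, 8.36 and 8.06 in replicates 1, 2 and 3, against 7.38, 7.76 and 7.68 on vehicle. In the TRβ1 pool they were 7.56, 8.06 and 7.89 on T3, against 7.40, 7.47 and 7.37 on vehicle. In the control pool they were 7.70, 7.71 and 7.92 on T3, against 7.15, 7.24 and 7.51 on vehicle. T3 was higher in 3 of 3 same-numbered pairs of each pool, as it was for 11.7%, 14.3% and 13.1% of all features in the TRα1, the TRβ1 and the control pool. The values did not overlap between T3 and vehicle in the TRβ1 and control pools, a separation in either direction that 5.04% and 6.16% of all features showed, and they overlapped in the TRα1 pool, where no gene of the list was separated, beside 5.26% of all features. The differences were 0.45 ± 0.12 (SE with the block) in the TRα1 pool, 0.42 ± 0.12 with TRβ1 and 0.48 ± 0.12 for the control pool. None of these passed on its own, with limma adjusted p-values of 0.15, 0.242 and 0.331 with the block.

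Averaged over the 3 pools, the MLXIPL difference was 0.45 ± 0.07 with the block (1.36-fold, 95% interval 0.30 to 0.59), with a limma adjusted p of 0.0014. Without the block it was 0.45 ± 0.10 and just missed the threshold (adjusted p = 0.056). The call with the block held when any 1 of the 18 arrays was left out. It was lost when all arrays numbered 3 were left out (limma adjusted p = 0.091). For this average, 2 genes of the list passed with the block and none without it, beside 1.69% and 0.423% of all features, and 7 genes and 1 gene had an unadjusted p under 0.05, beside 10.3% and 3.82% of all features.

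The other gene was NPC1, which encodes the lysosomal membrane protein that hands cholesterol from lysosomes to the rest of the cell. It stood at 9.07, 9.63 and 9.45 on T3 in the TRα1 pool, against 8.61, 9.23 and 9.19 on vehicle. In the TRβ1 pool it stood at 8.95, 9.66 and 9.49 on T3, against 8.73, 9.39 and 9.22 on vehicle. The control pool had 8.84, 9.61 and 9.37 on T3, against 8.68, 9.33 and 9.20 on vehicle. T3 was higher in all 3 pairs of each pool, beside 11.7%, 14.3% and 13.1% of all features in the same order. Replicate 1 was the lowest array of every group, so the T3 and vehicle values overlapped in each. With the block, NPC1 rose by 0.37 ± 0.07 in the TRα1 pool (1.30-fold, limma adjusted p = 0.011). This call was lost without TRα1 T3 replicate 1 (adjusted p = 0.091), TRα1 vehicle replicate 1 (0.060) or TRα1 vehicle replicate 2 (0.085).

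NPC1 differed by 0.25 ± 0.07 with TRβ1 and by 0.20 ± 0.07 for the control pool, neither of which passed (limma adjusted p = 0.196 and 0.647 with the block). The mean over the 3 pools was 0.28 ± 0.04 (1.21-fold, adjusted p = 6.5e-04 with the block), and did not pass without it (0.28 ± 0.15). It held without any 1 array, and was lost without all arrays numbered 2 (adjusted p = 0.063) or all arrays numbered 3 (0.079). Of the other sterol transport genes, STARD4, a cytosolic sterol carrier, differed by 0.12, 0.15 and 0.06 on T3 in the TRα1, the TRβ1 and the control pool, and the cholesterol uptake transporter NPC1L1 by 0.00, -0.12 and 0.00, and neither passed.

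The remaining regulators did not pass either. SREBF1, which encodes the SREBP form that favours fatty acid genes, differed by 0.14, -0.05 and -0.11 on T3 in the TRα1, the TRβ1 and the control pool. SREBF2, which encodes the form that favours sterol genes, differed by 0.00, -0.02 and 0.12, and SCAP by 0.04, 0.04 and 0.03. INSIG1 differed by -0.07, -0.18 and 0.06 and INSIG2 by -0.09, -0.13 and -0.08. The signal of the INSIG1 feature was dim, between 4.51 and 5.04 on the 18 arrays.

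In the sterol arm, the T3 differences ran between -0.17 (PMVK, phosphomevalonate kinase) and 0.15 (NSDHL, a sterol demethylating dehydrogenase) in the TRα1 pool, between -0.08 and 0.14 (NSDHL) in the TRβ1 pool, and between -0.13 (PMVK) and 0.16 (SC5D, a sterol desaturase) in the control pool. NSDHL had the most even pattern of the arm and was picked out after its values were seen. It stood at 10.29, 10.09 and 10.00 on T3 against 10.18, 9.89 and 9.88 on vehicle in the TRα1 pool, at 10.26, 10.02 and 9.96 against 10.10, 9.87 and 9.85 in the TRβ1 pool, and at 10.12, 9.89 and 9.78 against 9.98, 9.78 and 9.65 in the control pool. All 9 pairs were higher on T3, by a mean of 0.14, which did not pass (limma adjusted p = 0.076 with the block). Of all features, 11.7%, 14.3% and 13.1% were higher in all 3 pairs of the TRα1, the TRβ1 and the control pool. HMGCS1, which makes the HMG-CoA of the mevalonate pathway, differed by -0.02, -0.02 and 0.06 in the TRα1, the TRβ1 and the control pool, and SQLE, squalene epoxidase, by -0.03, 0.03 and 0.02. With the block, the 95% intervals of the 16 sterol genes reached from -0.40 to 0.28 in the TRα1 pool, from -0.33 to 0.27 in the TRβ1 pool and from -0.36 to 0.31 in the control pool. Without it they were wider, from -0.73 to 0.62, from -0.66 to 0.52 and from -0.70 to 0.60 in the same order. The blocked intervals of NSDHL in both receptor pools and of SC5D in the control pool lay above 0, with limma adjusted p-values of 0.633, 0.735 and 0.823 with the block.

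The fatty acid arm gave a similar picture with a wider spread. Fatty acid synthase (FASN) differed by 0.09, 0.06 and -0.02 on T3 in the TRα1, the TRβ1 and the control pool, the acetyl-CoA carboxylase ACACA by 0.13, 0.13 and 0.06, and the citrate-cleaving enzyme ACLY by 0.00, 0.01 and 0.02. The stearoyl-CoA desaturase SCD differed by 0.01, 0.02 and 0.09. Differences were largest for the elongase ELOVL5 in the TRα1 pool (0.23), for GPAM, which starts glycerolipid synthesis in mitochondria, in the TRβ1 pool (0.32), and for the elongase ELOVL6 in the control pool (0.24). None of these passed with or without the block. The intervals of the arm with the block reached from -0.40 to 0.49, from -0.41 to 0.61 and from -0.43 to 0.43 in the TRα1, the TRβ1 and the control pool. Without it they reached from -0.75 to 0.90, from -0.70 to 0.92 and from -0.78 to 0.78.

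Whether the response to T3 depended on the receptor was tested as the difference of the responses. The 3 tests share arrays: both comparisons with the control pool use its 6 arrays. No gene of the list passed in any of the 3 tests with or without the block in limma, and none had an unadjusted p under 0.05 in either fit. Of all features, 1.39%, 1.34% and 1.09% had such a p without the block for TRα1 minus control, TRβ1 minus control and TRβ1 minus TRα1. With the block these shares were 3.75%, 4.06% and 3.01%. Without the block none of the 20546 features passed the adjusted p in any of the 3 tests. Across all features, 0.0292% passed with the block for TRα1 against control, and none passed for TRβ1 against control or TRβ1 against TRα1. The sterol arm had median differences of -0.05, -0.01 and 0.02 for TRα1 minus control, TRβ1 minus control and TRβ1 minus TRα1, and the fatty acid arm 0.04, 0.01 and 0.005. Single genes ran between -0.17 (SC5D) and 0.25 (SREBF1) for TRα1 minus control, between -0.24 (INSIG1) and 0.27 (GPAM) for TRβ1 minus control, and between -0.20 (SREBF1) and 0.13 (EBP, a sterol isomerase) for TRβ1 minus TRα1. For MLXIPL the response in the TRα1 pool minus that in the control pool was -0.03, with a 95% interval of -0.38 to 0.32 with the block, and for NPC1 it was 0.17, with an interval of -0.03 to 0.37.

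Both receptor pools were also set against the control pool. The median absolute difference of the 41 genes from the control pool was 0.15 with TRα1 and 0.13 with TRβ1 on vehicle, and 0.16 and 0.13 on T3. It was 0.06 for TRβ1 minus TRα1 on either treatment, beside 0.07, 0.06 and 0.06 for the T3 differences in the TRα1, the TRβ1 and the control pool, and these widths were not tested against each other. Over all features the widths from the control pool were 0.10 with TRα1 and 0.09 with TRβ1, on vehicle and on T3 alike. They were 0.08 for TRβ1 minus TRα1 on either treatment, and 0.07, 0.07 and 0.08 for the T3 differences in the TRα1, the TRβ1 and the control pool. On vehicle, all 16 sterol genes were above 0 in the TRα1 minus control difference, with a median of 0.17, and all 16 were above 0 in the TRβ1 minus control difference, with a median of 0.14. These 2 comparisons share the control arrays, so their agreement is not independent. The medians over all features were 0.0007 and -0.004, with 10316 and 10028 of 20546 features above 0. On T3, 14 of 16 sterol genes were above 0 for TRα1 minus control (median 0.07) and 16 of 16 for TRβ1 minus control (median 0.13). Over all features, 10561 and 10630 of 20546 were above 0 there, with medians of 0.005 and 0.006. The T3 arrays are other arrays of the same pools and replicate numbers, so this agreement is not independent either. By same-numbered pairs, the sterol median for TRα1 minus control on vehicle was 0.11, 0.12 and 0.25 in replicates 1, 2 and 3, and 11 of 16 genes were higher in all 3 pairs, beside 17.2% of all features. For TRβ1 minus control on vehicle the pair medians were 0.03, 0.21 and 0.20, and 13 of 16 genes were higher in all 3 pairs, beside 15.2% of all features. The members share their arrays and are not replicates, and no test was made of the arm as a whole.

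The fatty acid arm was less uniform between pools. On vehicle 13 of 16 genes were above 0 for TRα1 minus control (median 0.13) and 10 of 16 for TRβ1 minus control (median 0.07). Its pair medians for TRα1 minus control on vehicle were -0.02, 0.12 and 0.23, and for TRβ1 minus control -0.10, 0.11 and 0.10, so the first replicate had the opposite sign to the others in both. ACACA and ACACB, which encode the 2 acetyl-CoA carboxylases, were on the low side on vehicle, and neither passed. They stood at -0.23 and -0.23 for TRα1 minus control and at -0.25 and -0.23 for TRβ1 minus control, which share the control arrays. The ACACA differences came mostly from replicate 2, at 8.49 and 8.47 with TRα1 and TRβ1 against 9.07 in the control pool. Replicate 3 of ACACA was slightly higher in both receptor pools than in the control pool. ACACB was lower in every same-numbered pair, but its mean level of 5.70 lay below the median of the tested features (6.13). Between the receptor pools, TRβ1 minus TRα1, the sterol arm had medians of -0.01 on vehicle and 0.03 on T3, and the fatty acid arm -0.05 and -0.04.

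**Figure D2:**
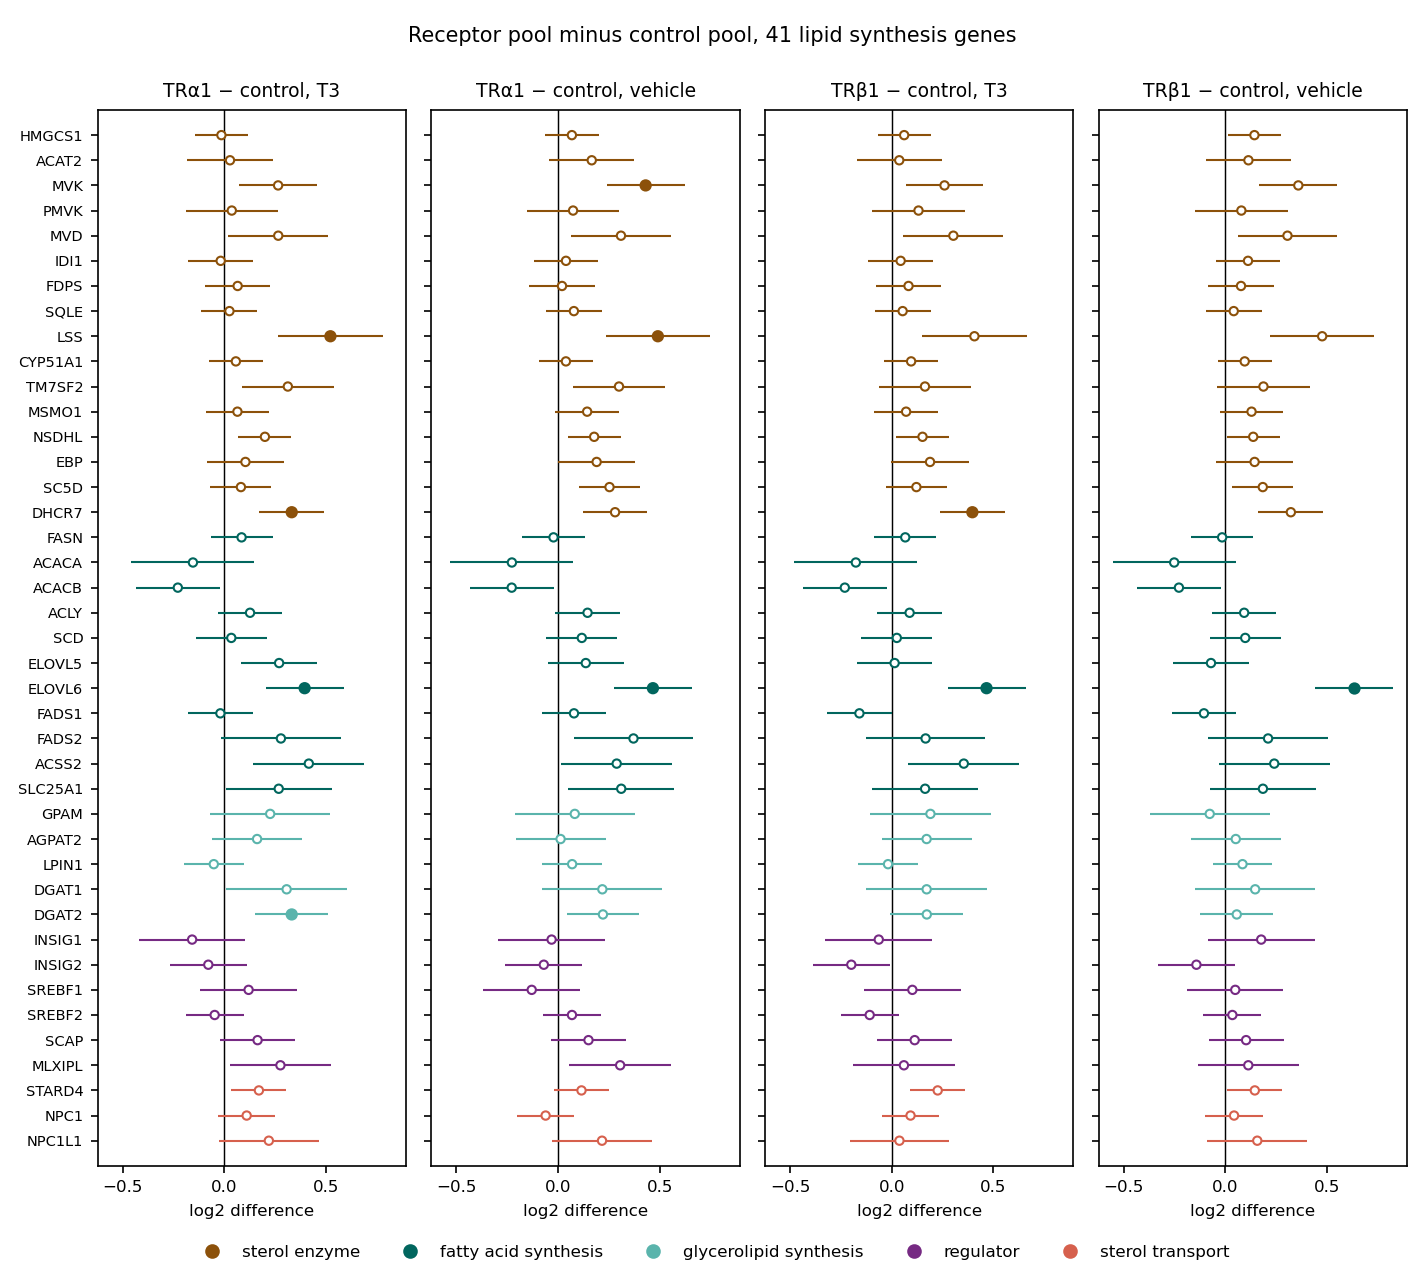
Log2 differences between pools on vehicle and on T3 for the 41 genes, grouped by role (3 arrays per group). Points are differences, bars are 95% intervals of the limma fit blocked on replicate number, and a filled point has an adjusted p under 0.05 in that fit. Sterol genes lie to the right of 0 on vehicle in both receptor pools, and ELOVL6 is furthest right for TRβ1 minus control on vehicle, at 0.63.

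No gene of the list passed in any pool difference without the block, where 0.307%, 0.117% and 0% of all features passed on vehicle and 0.433%, 0.156% and 0.0438% on T3, for TRα1 minus control, TRβ1 minus control and TRβ1 minus TRα1. On vehicle 2, 2 and 0 genes of the list had an unadjusted p under 0.05 in that fit, beside 4.76%, 3.51% and 2.89% of all features, and on T3 1, 1 and 0, beside 5.14%, 3.65% and 2.78%. With the block, 3 genes passed for TRα1 minus control on vehicle (MVK, LSS and ELOVL6) and 1 for TRβ1 minus control (ELOVL6), beside 2.07% and 0.735% of all features. On T3, 4 genes passed for TRα1 minus control (LSS, DHCR7, ELOVL6 and DGAT2) and 2 for TRβ1 minus control (DHCR7 and ELOVL6), beside 2.83% and 0.871% of all features. None of the 41 passed for TRβ1 minus TRα1, on vehicle or on T3, beside 0.54% and 0.604% of all features, and 2 and 1 had an unadjusted p under 0.05, beside 7.71% and 8.27%. All genes that passed were higher in the receptor pool. The values of no gene were separated between groups for TRβ1 minus control on T3, TRβ1 minus TRα1 on vehicle or TRβ1 minus TRα1 on T3, beside 7.64%, 5.47% and 5.85% of all features.

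ELOVL6, which extends palmitate to stearate, showed the largest of these differences. Its values on vehicle were 7.80, 8.22 and 7.92 in the TRα1 pool and 7.95, 8.31 and 8.18 in the TRβ1 pool, against 7.41, 7.81 and 7.32 in the control pool. On T3 they were 7.87, 8.55 and 8.02 in the TRα1 pool and 7.90, 8.53 and 8.22 in the TRβ1 pool, against 7.61, 8.03 and 7.60 in the control pool. On vehicle the TRβ1 values lay wholly above the control values, a separation shown in either direction by 6.59% of all features, while the TRα1 range just met the control range. On vehicle ELOVL6 was higher by 0.63 ± 0.09 in the TRβ1 pool (SE with the block, 1.55-fold, limma adjusted p = 0.0024) and by 0.47 ± 0.09 in the TRα1 pool (1.38-fold, adjusted p = 0.013). The TRβ1 call held without any 1 of its 6 arrays, and was lost when all arrays of 1 number were left out, with limma adjusted p-values between 0.054 and 0.234.

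The TRα1 call of ELOVL6 on vehicle was lost without TRα1 vehicle replicate 1 (adjusted p = 0.052) or 3 (0.064), or control vehicle replicate 3 (0.081). On T3 it was higher by 0.39 ± 0.09 in the TRα1 pool (limma adjusted p = 0.027 with the block) and by 0.47 ± 0.09 in the TRβ1 pool (adjusted p = 0.022). Both calls on T3 were lost without replicate 2 of the receptor pool, replicate 3 of the receptor pool, control T3 replicate 2 or control T3 replicate 3, with adjusted p-values up to 0.149 and 0.138.

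Early in the mevalonate pathway, MVK encodes mevalonate kinase. It stood at 8.97, 8.99 and 8.78 on vehicle in the TRα1 pool and at 8.88, 8.96 and 8.68 in the TRβ1 pool, against 8.73, 8.39 and 8.33 in the control pool. All TRα1 values lay above all control values, a separation in either direction that 7.67% of all features showed, and the TRβ1 values overlapped the control values. MVK was higher by 0.43 ± 0.09 in the TRα1 pool (SE with the block, 1.35-fold, limma adjusted p = 0.021) and by 0.36 ± 0.09 in the TRβ1 pool (adjusted p = 0.096). The TRα1 call was lost without replicate 2 or 3 of either group (adjusted p up to 0.128). On T3 the differences were 0.26 in both receptor pools and did not pass: MVK stood at 8.86, 8.80 and 8.66 in the TRα1 pool and at 8.75, 8.97 and 8.59 in the TRβ1 pool, against 8.67, 8.49 and 8.37 in the control pool.

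LSS, lanosterol synthase, closes the sterol ring. On vehicle it stood at 9.16, 10.05 and 9.96 in the TRα1 pool and at 9.32, 10.12 and 9.68 in the TRβ1 pool, against 9.05, 9.41 and 9.24 in the control pool. On T3 it stood at 9.26, 10.06 and 9.93 in the TRα1 pool and at 9.21, 10.04 and 9.65 in the TRβ1 pool, against 9.05, 9.51 and 9.12 in the control pool. Replicate 1 was the lowest array of every group, in the control pool as in the receptor pools. The gap to the control pool was widest in replicates 2 and 3. LSS was higher in the TRα1 pool by 0.49 ± 0.12 on vehicle (1.41-fold, limma adjusted p = 0.049 with the block) and by 0.52 ± 0.12 on T3 (1.44-fold, adjusted p = 0.028). Each call was lost without replicate 2 or 3 of either group, with adjusted p-values up to 0.253 and 0.153. The TRβ1 differences of 0.48 and 0.41 did not pass (adjusted p = 0.102 and 0.16).

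DHCR7 encodes the reductase of the last step of cholesterol synthesis. On T3 it stood at 11.10, 11.44 and 11.19 in the TRα1 pool and at 11.10, 11.62 and 11.21 in the TRβ1 pool, against 10.68, 11.18 and 10.87 in the control pool. Vehicle values were 10.98, 11.46 and 11.22 in the TRα1 pool and 10.99, 11.61 and 11.19 in the TRβ1 pool, against 10.77, 11.09 and 10.97 in the control pool. Every same-numbered pair was higher in the receptor pool, although the ranges overlapped in part. Of all features, 18.6% and 15.6% on T3 and 17.2% and 15.2% on vehicle were higher in all 3 pairs, with TRα1 and TRβ1. With the block DHCR7 was higher on T3 by 0.33 ± 0.07 in the TRα1 pool (limma adjusted p = 0.026) and by 0.40 ± 0.07 in the TRβ1 pool (adjusted p = 0.019). The TRα1 call was lost without any 1 of its 6 arrays (adjusted p between 0.053 and 0.117), and the TRβ1 call without any 1 of its 6 arrays other than TRβ1 T3 replicate 3 (adjusted p up to 0.137). On vehicle the differences were 0.28 and 0.32 and did not pass (adjusted p = 0.074 and 0.070).

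In glycerolipid synthesis, DGAT2 encodes an enzyme of the final step to triglyceride. On T3 it stood at 8.20, 8.38 and 8.55 in the TRα1 pool and at 8.09, 8.32 and 8.24 in the TRβ1 pool, against 7.89, 8.16 and 8.08 in the control pool. Vehicle values were 8.13, 8.36 and 8.46 in the TRα1 pool and 8.13, 8.20 and 8.13 in the TRβ1 pool, against 7.82, 8.20 and 8.27 in the control pool. On T3 the TRα1 values lay above all control values, as they also did for SLC25A1 and AGPAT2, a separation in either direction that 10.1% of all features showed. DGAT2 was higher by 0.33 ± 0.08 in the TRα1 pool on T3 (1.26-fold, limma adjusted p = 0.048 with the block), and the call was lost without any 1 of the 6 arrays (adjusted p between 0.084 and 0.217). SLC25A1, the mitochondrial citrate carrier that supplies cytosolic acetyl-CoA, stood at 9.40, 9.85 and 9.65 on vehicle in the TRα1 pool and at 9.24, 9.87 and 9.42 in the TRβ1 pool, against 9.40, 9.28 and 9.30 in the control pool. Its TRα1 minus control difference of 0.31 ± 0.12 came from replicates 2 and 3, since replicate 1 was near equal, and did not pass (limma adjusted p = 0.266 with the block).

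**Figure D3:**
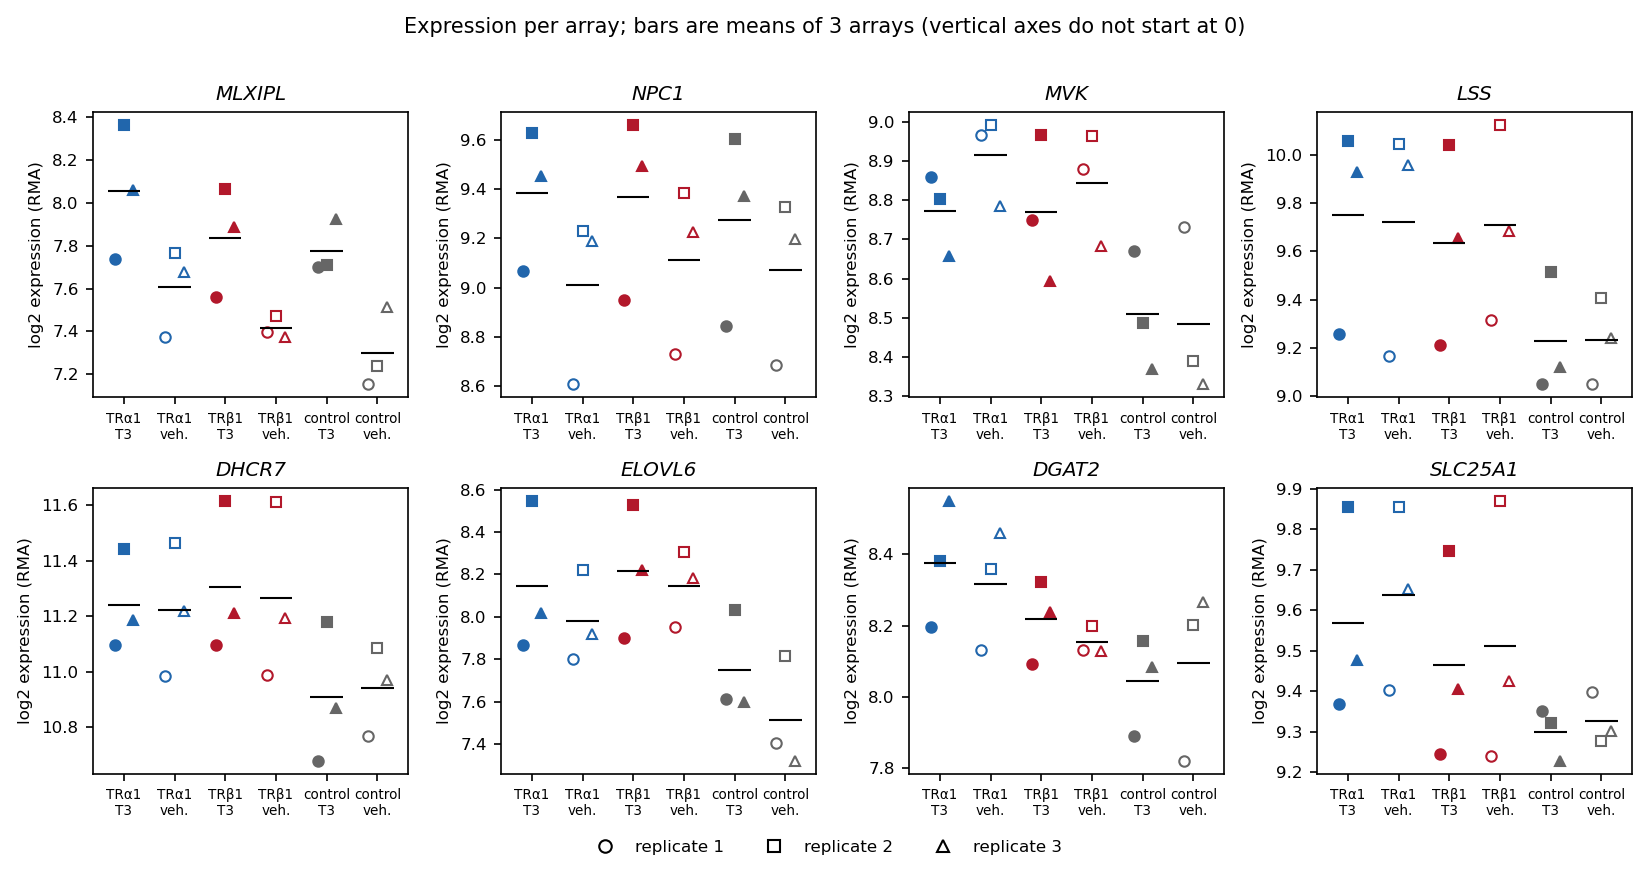
Log2 RMA values on each of the 18 arrays for 8 genes (MLXIPL, NPC1, MVK, LSS, DHCR7, ELOVL6, DGAT2 and SLC25A1) in the TRα1, the TRβ1 and the control pool. Filled symbols are T3 and open symbols vehicle, the symbol shape gives the replicate number, and short bars are group means. MLXIPL shows the T3 difference in each pool, whereas ELOVL6, MVK and LSS differ mainly between pools.

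The values of the synthesis genes also moved with the replicate number. Taking each gene as its deviation from its mean over the 18 arrays, the fatty acid arm averaged between -0.33 and -0.22 on the 6 arrays numbered 1, between 0.07 and 0.26 on those numbered 2 and between -0.03 and 0.23 on those numbered 3. The sterol arm averaged between -0.02 and 0.11, between -0.11 and 0.18, and between -0.27 and -0.01 on the same sets. The fatty acid arm thus lay below the sterol arm on every array numbered 1, and above it on every array numbered 2 or 3. As deviations from the mean over all 18 arrays, these values do not show which repeat departed. All 16 fatty acid genes were lower on the arrays numbered 1 than on the others, with a median of -0.40, while 7 of 16 sterol genes were lower, with a median of 0.17, beside a median of -0.11 over all features.

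For 6 fatty acid genes the arrays numbered 1 lay wholly below the other 12, which 9.42% of all features did. FASN ranged from 10.29 to 10.52 on the arrays numbered 1 and from 11.11 to 11.27 on the others, a difference of -0.75. ACACA (-0.68), ACLY (-0.67), LPIN1 (-0.63), SCD (-0.38) and FADS1 (-0.38) were the others. In the sterol arm 4 genes lay wholly above, which 8.53% of all features did: PMVK (0.58), ACAT2 (0.54), FDPS (0.40) and IDI1 (0.37), and 2 lay wholly below, CYP51A1 (-0.45) and SQLE (-0.18). SREBF2 lay between 8.19 and 8.25 on the arrays numbered 1, against 8.85 to 9.08 on the others (-0.73), and SCAP, NPC1 and NPC1L1 also lay wholly below. The labels do not say what set the repeats apart, and the part of culture, RNA or array handling in these values was not tested.

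**Figure D4:**
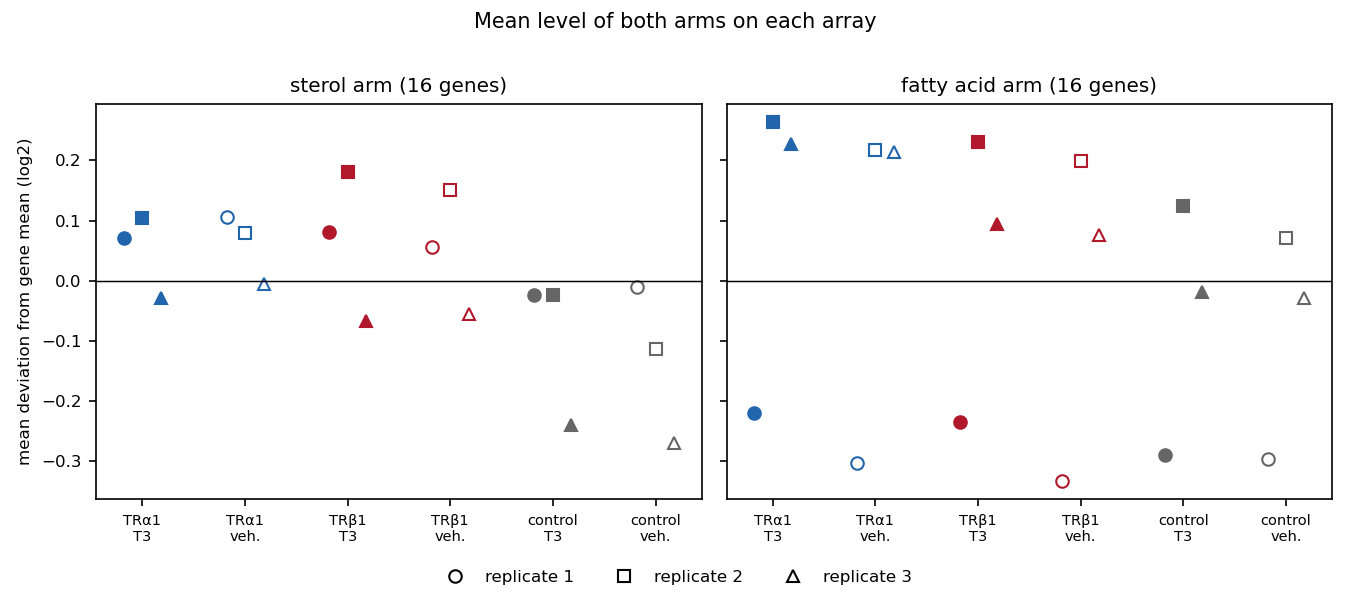
Mean deviation of the sterol arm and of the fatty acid arm (16 genes each) from the genes' means over 18 arrays, in log2 units, for each array by group and replicate number. The fatty acid arm lies between -0.33 and -0.22 on all 6 arrays numbered 1.

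**Figure D5:**
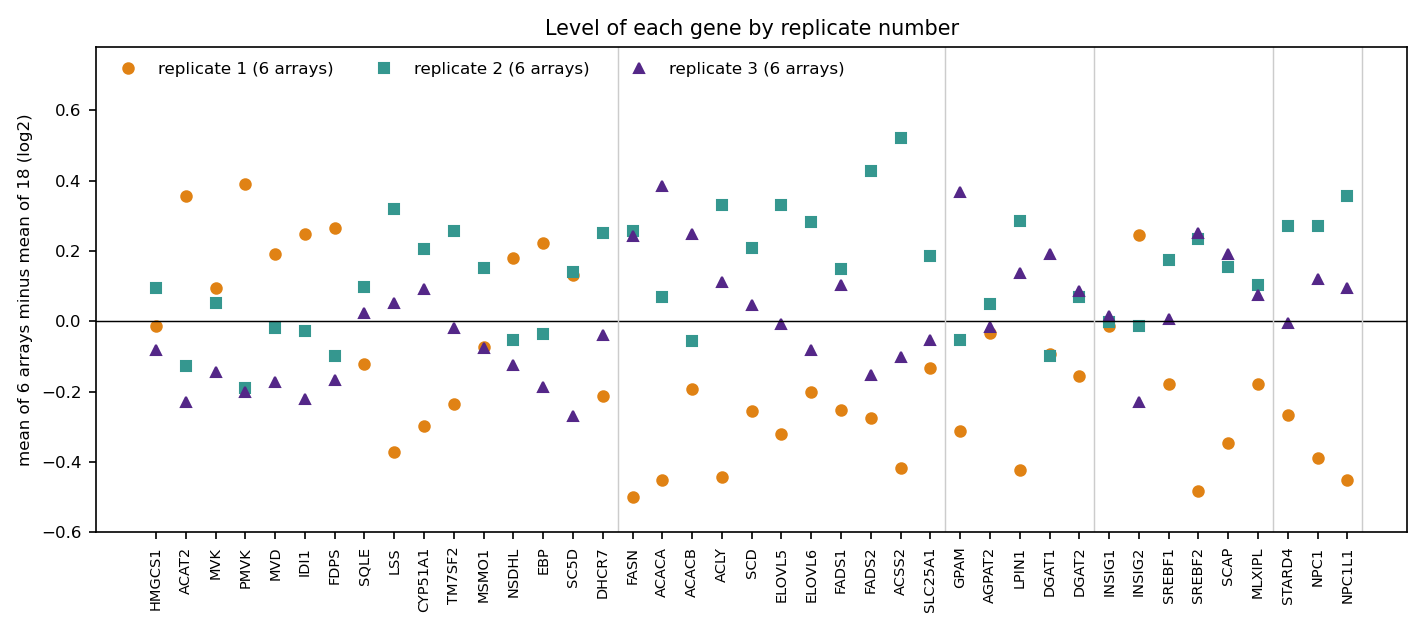
For each of the 41 genes, the mean of the 6 arrays of each replicate number minus the gene's mean over all 18 arrays, in log2 units, with genes grouped by role. FASN, ACACA and ACLY are low for number 1, and PMVK and ACAT2 are high for it.

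Other genes of lipid handling were counted from a list of 25 sterol handling genes, of which 23 were measured, and 37 of fatty acid and glycerolipid handling, of which 31 were. Without the block 1 of them passed: ACSL1, a long-chain acyl-CoA synthetase, rose on T3 by 0.45 ± 0.09 averaged over the pools (limma adjusted p = 0.039), where 0.423% of all features passed. With the block it rose by 0.58 ± 0.09 in the TRα1 pool (adjusted p = 0.0028), beside ACSL5, which rose by 0.42 ± 0.08 (adjusted p = 0.034). These were 2 of 31 fatty acid handling genes, and 0 of 23 sterol handling genes passed there, beside 0.667% of all features. Averaged over the pools, ACSL1, ACSL4, ACSL5 and the phosphatidate phosphatase LPIN2 rose and the transcription regulators PPARG (-0.25) and PPARGC1A (-0.22) fell with the block, 6 of 31 genes, and 0 of 23 sterol handling genes passed, beside 1.69% of all features. On vehicle, SOAT2, which esterifies cholesterol, was lower in the TRα1 pool than in the control pool (-0.46 ± 0.09, limma adjusted p = 0.013 with the block), as was the lipoprotein receptor VLDLR (-0.59 ± 0.10, adjusted p = 0.0062), and ACSL1 was higher (0.41 ± 0.09, adjusted p = 0.021). These were 2 of 23 sterol handling genes and 1 of 31 of the other list, beside 2.07% of all features. On T3, 5 of 23 sterol handling genes passed with the block for TRα1 minus control, beside 2.83% of all features: NPC2 and ABCG8 were higher and SOAT2, VLDLR and CYP7A1, the rate-limiting enzyme of bile acid synthesis (-1.10 ± 0.23, limma adjusted p = 0.017), were lower. The signal of the CYP7A1 feature was dim, between 3.43 and 5.05 on the 18 arrays. ACSL1, the 1 of 31 fatty acid handling genes that passed there, was higher by 0.62 ± 0.09 (limma adjusted p = 8.3e-04). For TRβ1 minus TRα1 with the block, SOAT2 was higher (0.65 on vehicle and 0.56 on T3) and ACSL1 lower (-0.43 and -0.60) on both treatments, and CIDEB, a lipid droplet protein, was higher on vehicle (0.47). No other gene of the 23 and the 31 passed there, beside 0.54% of all features on vehicle and 0.604% on T3. In TRβ1 minus control no gene of either list passed, on vehicle or on T3, in either fit, and 2 and 4 sterol handling genes and 2 and 0 of the other list had an unadjusted p under 0.05 without the block, beside 3.51% and 3.65% of all features.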

How the data were processed

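The deposited table held log2 RMA values, which the authors computed by RMA (the submitters' processing notes name R 2.7.1) from 200 ng of total RNA per array; the array medians lay between 5.31 and 5.49. No genome build came with the table. Of 32321 features, the 20546 with a gene symbol were tested in limma 3.58.1 (R 4.3.3): 1 mean for each of 6 groups, 18 arrays, 13 contrasts, two-sided moderated tests, Benjamini-Hochberg adjustment within a contrast, threshold 0.05. The model was tested on simulated data with added differences larger than most of those described here. That simulation does not show how often smaller differences would be found. RMA draws arrays to 1 distribution, so a shift common to all genes is not seen. The 3 repeats per group limit the precision, and the median standard error of a T3 difference was 0.157, or 0.107 with the replicate block.

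The repeats share replicate numbers. After group means were subtracted, all 45 pairs of arrays with the same number correlated positively (lowest 0.259; median of pairs with different numbers -0.483), so the numbers were read as pairing the arrays, and the fit with the number as a block is printed beside the fit without it, on which the design rests.

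The members and gene lists were chosen with earlier results of these data known. Values of every array were given for genes past the threshold in any contrast in either fit, and for up to 2 genes per arm with the largest difference without overlap between groups; NSDHL was added after its values were seen. THRA and THRB served to check the pools. Promoters came from RefSeq (GRCh38.p14), and FASN, ACAT2, DGAT2, SQLE and DGAT1 were not matched there.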

Additional observations from a re-analysis of the deposited data

How the results depend on the processing

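No gene difference among the 13 given beside a call reversed its sign under any setting, and the 6 counts with the replicate block (1 for T3 with TRα1, 2 for T3 averaged over pools, 3 and 4 for TRα1 minus control on vehicle and T3, 1 and 2 for TRβ1 minus control on vehicle and T3, each 0 without it) were the counts it moved; it changed no other call. For T3 averaged over pools the count was 1, MLXIPL, among features above the median level (adjusted p = 0.043), with array weights (0.0099) and with arrays centred on their median (0.011). The sterol median for T3 with TRβ1 was 0.0021 with array weights, and the fatty acid median for T3 with TRα1 was 0.066 with arms widened by regulators and transport genes. With arrays or whole replicate numbers left out, with or without the block (chosen after the data were seen), the counts lay between 0 and 1, 0 and 2, 0 and 3, 0 and 2, 0 and 1, and 0 and 1, in the order T3 with TRα1, T3 averaged, TRα1 minus control on vehicle and T3, and TRβ1 minus control on vehicle and T3. Without the block MLXIPL passed for the average without TRα1 T3 replicate 1 (0.017), TRβ1 T3 replicate 1 (0.025), control vehicle replicate 3 (0.049) or all arrays numbered 1 (0.031). Sterol medians then ranged over -0.075 to 0.032, -0.050 to 0.082 and -0.0094 to 0.14 for T3 with TRα1, TRβ1 and control, and fatty acid medians over -0.16 to 0.19, -0.14 to 0.18 and -0.10 to 0.15. For TRα1 minus control the sterol range was 0.089 to 0.26 on vehicle and 0.041 to 0.21 on T3, and the fatty acid range 9.3e-05 to 0.29 and 0.057 to 0.36; for TRβ1 minus control they were 0.060 to 0.27 and 0.069 to 0.22, and -0.077 to 0.23 and -0.069 to 0.23. TRβ1 minus TRα1 gave -0.030 to 0.098 (sterol, T3), -0.26 to 0.086 (fatty acid, vehicle) and -0.24 to 0.041 (fatty acid, T3). With the block and 1 array left out the sterol medians stayed within 0.13 to 0.22 and 0.06 to 0.10 for TRα1 minus control on vehicle and T3, and 0.12 to 0.16 and 0.08 to 0.14 for TRβ1 minus control. Unblocked, an array left out unbalances the replicate numbers between groups. The cause of the other shifts was not tested.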
